A study of Mus musculus with 9 samples.

Results

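Foxc1, Foxc2, Foxd1 and Foxd2 encode forkhead transcription factors of the mouse, and their transcript levels were followed in cells of the forelimb bud sorted by a GFP reporter in the Pax3 gene. The 4 genes were taken by name, as every probe set of the array whose annotation gives exactly 1 gene symbol and whose symbol is 1 of the 4. This gave 6 probe sets of the 45037 tested and 4 genes of the 18193 that have such a probe set. Foxc2 and Foxd1 have 1 probe set each, and Foxc1 and Foxd2 have 2 each. Where a gene has 2, the one with the higher mean over all arrays stands for it and the other is a check.

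The series used 9 Affymetrix Mouse430_2 arrays, 3 for each of 3 groups of cells sorted by flow cytometry from forelimb buds at E10.5, a stage when muscle progenitors have entered the limb. PAX3-FKHR GFP+ cells came from Pax3PAX3-FKHR/GFP embryos, in which 1 Pax3 allele encodes the PAX3-FKHR fusion protein and the other encodes GFP. Control GFP+ cells came from Pax3GFP/+ embryos, which keep 1 intact Pax3 allele, and GFP- cells are the limb bud cells without the reporter, for which the labels give no genotype. The comparison of the first pair of groups asks which transcripts differ where PAX3-FKHR replaces the intact Pax3 allele. Presence of the fusion and absence of intact Pax3 cannot be told apart in it. Below, "with PAX3-FKHR" and "response to PAX3-FKHR" refer to this comparison only. The comparison with GFP- cells asks which transcripts mark Pax3-expressing cells in the limb. PAX3-FKHR joins the DNA binding part of PAX3 to the activation domain of FKHR, the protein also called FOXO1, and its coding sequence sits in the Pax3 locus, where it was switched on by PGK-Cre. The GFP gate follows the Pax3 locus and not a cell type, and each sample pooled the limb buds of several embryos. The p-values below therefore measure the spread between 3 pooled samples of a group. In such bulk samples, fewer cells of a type and less RNA per cell cannot be told apart.

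Forkhead proteins bind DNA through a winged helix domain. Foxc1 and Foxc2 are close relatives that act together in the paraxial mesoderm, in somite formation and in the development of blood and lymphatic vessels, whereas Foxd1 and Foxd2 are best known from the stroma of the developing kidney and from paraxial and limb mesenchyme. In the somite, where muscle and vessel progenitors share an origin, Pax3 and Foxc2 are known to restrain each other. Pax3 binds DNA through a paired domain and a homeodomain.

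On the mouse assembly GRCm38.p6 of the RefSeq table, Foxc1 lies at chr13:31806646-31810635, Foxc2 at chr8:121116171-121118895, Foxd1 at chr13:98354245-98356705 and Foxd2 at chr4:114906280-114908898. The table of promoter windows, from 250 bases before to 50 bases after a gene's start, holds Foxc1, Foxd1 and Foxd2. These windows were searched on both strands for TAAT, the core that homeodomains bind, and for GTCAC, a core of paired domain sites, which do not overlap in any of the windows. TAAT occurred in 58.0% of all 32851 windows and in none of these 3. GTCAC occurred in 45.6% of all windows and once each in those of Foxc1 and Foxd1, on the strand opposite to the gene, whereas the Foxd2 window held no match. The stretches of 25 bases around the matches are given 5′ to 3′ on the gene's strand, with the 5 bases of the motif in capitals, at chr13:31806614-31806638 for Foxc1 and chr13:98354184-98354208 for Foxd1.
Foxc1: cctcgcctggGTGACggatgctcaa
Foxd1: tgcacaccatGTGACaggccccctt
The motif begins 22 bases before the start of Foxc1 and 51 bases before that of Foxd1. A match this common among windows describes the letters of these sequences only and shows no binding.

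All levels below are RMA values on the log2 scale, the array's background-corrected and normalised intensity of a probe set, and all differences are log2 fold changes with the standard error (SE) of a limma fit to all 9 arrays. Adjusted p-values are Benjamini-Hochberg values over all 45037 probe sets in a comparison. A probe set was called higher or lower at an adjusted p under 0.05 and a log2 fold change of at least 0.5 in either direction. The level of 1 probe set cannot be set against that of another, since each has its own probes. The values deposited carry no present or absent calls, so a low level is not read as absence.

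With PAX3-FKHR, 1 of the 4 genes was called lower, Foxc2, and none was called higher. Foxc2 was 3.17-fold lower in PAX3-FKHR GFP+ than in control GFP+ cells, while Foxd1 and Foxd2 were also below control on average without passing the test and Foxc1 was above it without passing the test. Of all probe sets, 0.142% were called lower, 0.395% higher and 0.537% in either direction in this comparison.

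The Foxc2 level was 5.27, 5.92 and 6.06 in the PAX3-FKHR GFP+ replicates, with a mean of 5.75 ± 0.42 (SD, n = 3). It was 7.30, 7.47 and 7.47 in the control GFP+ replicates, with a mean of 7.41 ± 0.10 (SD, n = 3). It was 5.47, 5.28 and 4.86 in the GFP- replicates, with a mean of 5.20 ± 0.31 (SD, n = 3). The 3 control GFP+ arrays stood above the other 6 without overlap, and the highest PAX3-FKHR GFP+ array lay 1.24 below the lowest control GFP+ array. Of all probe sets, 6.99% were lower without overlap with PAX3-FKHR. Between control GFP+ and GFP- cells 14.5% were higher without overlap. The log2 fold change of Foxc2 with PAX3-FKHR was -1.66 (SE 0.22, 95% interval -2.16 to -1.17, adjusted p = 0.00923), the 23rd lowest of all probe sets. Between control GFP+ and GFP- cells, Foxc2 was higher by 2.21 (SE 0.22, 95% interval 1.72 to 2.70, adjusted p = 4.17e-04), a 4.63-fold difference and the 98th highest. PAX3-FKHR GFP+ cells stayed above GFP- cells by 0.55, with a 95% interval of 0.06 to 1.04 and an adjusted p of 0.194, and the arrays of these groups overlapped. In rank among all probe sets of its array, Foxc2 lay between percentiles 77.7 and 79.1 in control GFP+ cells, between 52.5 and 64.0 in PAX3-FKHR GFP+ cells and between 46.2 and 55.3 in GFP- cells. The order of its levels was thus control GFP+ first, followed by PAX3-FKHR GFP+ and GFP- cells, whose arrays overlapped.

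**Figure D1:**
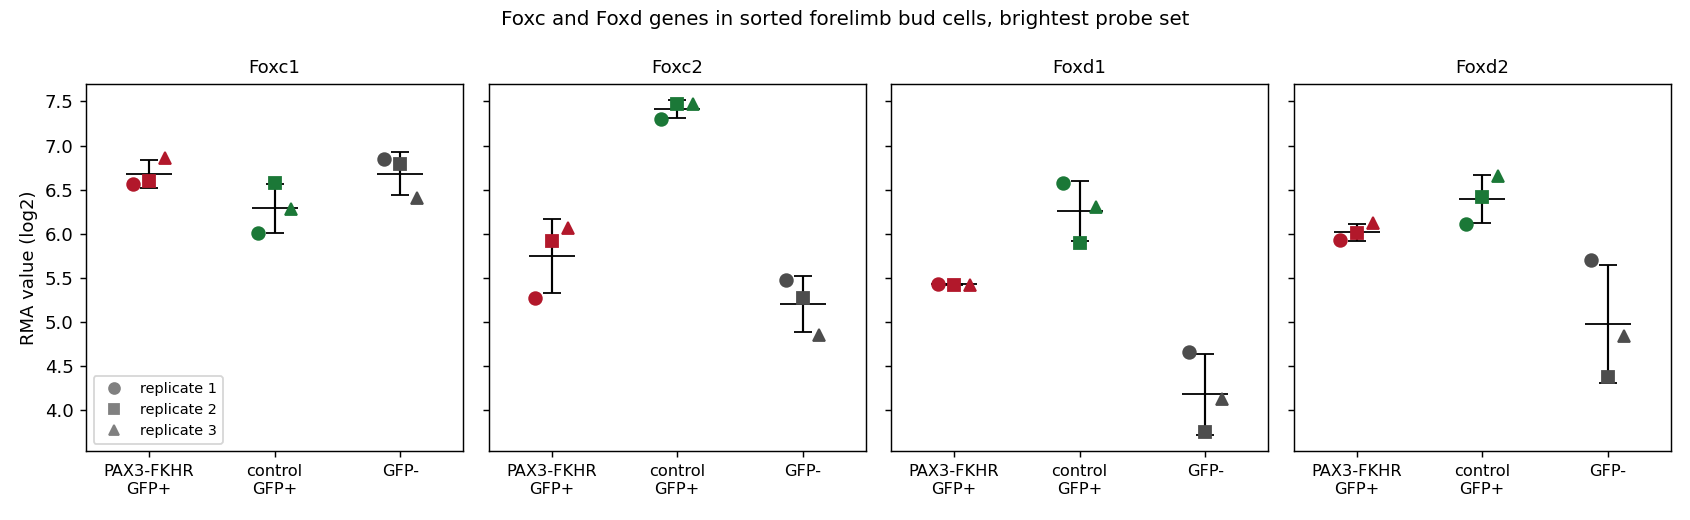
RMA value on the log2 scale (vertical axis, shared) of the main probe set of Foxc1, Foxc2, Foxd1 and Foxd2 in the 3 groups (horizontal axis). Points are single arrays, with the shape giving the replicate number, and bars are the mean and SD of 3 arrays. The control GFP+ arrays of Foxc2 lie between 7.30 and 7.47, above all others, and those of Foxd1 lie above both other groups, while the groups of Foxc1 overlap.

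Foxc1, the relative of Foxc2, was called in none of the 3 comparisons. Its main probe set read 6.57, 6.60 and 6.86 in PAX3-FKHR GFP+ cells, 6.01, 6.57 and 6.28 in control GFP+ cells and 6.85, 6.79 and 6.41 in GFP- cells. The arrays of each pair of groups overlapped, and the control GFP+ mean was the lowest of the 3. The difference with PAX3-FKHR was 0.39 (SE 0.18, 95% interval -0.02 to 0.80, adjusted p = 0.725). A change of the size found for Foxc2 lies outside this interval. Control GFP+ minus GFP- was -0.39 (95% interval -0.80 to 0.01, adjusted p = 0.247), and PAX3-FKHR GFP+ minus GFP- was -0.0069 (95% interval -0.42 to 0.40, adjusted p = 0.990).

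The second Foxc1 probe set gave 5.16, 5.76 and 5.22 in PAX3-FKHR GFP+ cells, 4.77, 4.98 and 5.03 in control GFP+ cells and 5.03, 4.96 and 4.69 in GFP- cells. Here the PAX3-FKHR GFP+ arrays lay above those of both other groups without overlap. Of all probe sets, 5.03% were likewise higher without overlap against control GFP+ cells and 15.3% against GFP- cells. The differences of this Foxc1 probe set were 0.45 from control GFP+ cells (adjusted p = 0.609) and 0.48 from GFP- cells (adjusted p = 0.141), and neither was called. Control GFP+ and GFP- cells differed by 0.03 on this probe set (adjusted p = 0.937), where the main one had -0.39. Both probe sets of Foxc1 thus gave a difference above 0 with PAX3-FKHR, against a fall of 1.66 for Foxc2.

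Within each array, Foxc2 minus Foxc1 was -1.30, -0.68 and -0.80 in PAX3-FKHR GFP+ cells, 1.29, 0.90 and 1.19 in control GFP+ cells and -1.38, -1.51 and -1.55 in GFP- cells. No pair of groups overlapped in this measure. The pair of genes differed by 2.05 in their response to PAX3-FKHR, with Foxc2 the lower. An exact two-sided permutation test gave p = 0.1, the smallest that 3 against 3 arrays allow, so that this test cannot reach 0.05 whatever the size of the difference. The pair differed by 2.61 between control GFP+ and GFP- cells and by 0.55 between PAX3-FKHR GFP+ and GFP- cells, each with exact permutation p = 0.1.

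In the comparison of Pax3-expressing with other limb cells, 3 of the 4 genes were called higher in control GFP+ cells, Foxc2, Foxd1 and Foxd2, by between 2.67-fold and 4.63-fold, and none was called lower. Of all probe sets, 1.84% were called higher, 4.01% lower and 5.84% in either direction there. The 3 genes named as higher were also free of overlap between the groups, which held in the same direction for 14.5% of all probe sets. Foxd1 was in addition called higher in PAX3-FKHR GFP+ than in GFP- cells, 1 of the 4 genes, where 2.80% of all probe sets were called higher and 6.80% in either direction. The comparisons share arrays, so they are given side by side and do not bear one another out.

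Foxd1, which marks stromal progenitors in the kidney, read 5.43, 5.42 and 5.42 in PAX3-FKHR GFP+ cells, with a mean of 5.43 ± 0.0031 (SD, n = 3). Replicate 2 and replicate 3 both read exactly 5.4237, and the source of this small spread was not tested. Foxd1 read 6.57, 5.90 and 6.30 in control GFP+ cells (6.26 ± 0.34, SD, n = 3) and 4.66, 3.75 and 4.13 in GFP- cells (4.18 ± 0.46, SD, n = 3). The 3 groups stood apart without overlap, in the order control GFP+, PAX3-FKHR GFP+ and GFP-. Control GFP+ exceeded GFP- cells by 2.08 (SE 0.23, 95% interval 1.57 to 2.58, adjusted p = 7.14e-04), a 4.21-fold difference. This fold rests on a low GFP- level, at percentiles 26.7 to 42.8 among all probe sets, against 62.0 to 69.7 in control GFP+ cells. PAX3-FKHR GFP+ exceeded GFP- cells by 1.24 (95% interval 0.74 to 1.75, adjusted p = 0.00855), a 2.37-fold difference. Between PAX3-FKHR GFP+ and control GFP+ cells the value was -0.83 (SE 0.23, 95% interval -1.34 to -0.33), with an adjusted p of 0.273, so Foxd1 was not called there. The arrays of the latter pair lay 0.467 apart, and 6.99% of all probe sets were lower in this comparison without overlap. Between PAX3-FKHR GFP+ and GFP- cells 15.3% of all probe sets were higher without overlap, and between control GFP+ and GFP- cells 14.5%.

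Foxd2 read 5.93, 6.004 and 6.12 in PAX3-FKHR GFP+ cells, 6.11, 6.41 and 6.65 in control GFP+ cells and 5.70, 4.38 and 4.84 in GFP- cells. Both GFP+ groups lay above the GFP- arrays, whose SD of 0.67 was the widest of the 3 groups, and the GFP+ groups overlapped with each other. Of all probe sets, 14.5% were higher without overlap in control GFP+ and 15.3% in PAX3-FKHR GFP+ than in GFP- cells. The GFP- arrays of Foxd2 lay at percentiles 38.2 to 58.4 among all probe sets. Control GFP+ exceeded GFP- cells by 1.42 (SE 0.28, 95% interval 0.79 to 2.05, adjusted p = 0.0157), a 2.67-fold difference. This call was lost without GFP- replicate 3, where the value was 1.35 with an adjusted p of 0.0581. PAX3-FKHR GFP+ minus GFP- was 1.05 (95% interval 0.42 to 1.67, adjusted p = 0.0524), just short of the threshold, and passed it without GFP- replicate 1 at 1.41 with an adjusted p of 0.00517. With PAX3-FKHR the value was -0.37 (95% interval -1.0001 to 0.26, adjusted p = 0.811).

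The second Foxd2 probe set was dimmer and its differences were smaller. It read 4.54, 4.70 and 4.45 in PAX3-FKHR GFP+ cells, 4.72, 4.70 and 4.52 in control GFP+ cells and 4.40, 4.16 and 4.22 in GFP- cells. The GFP- arrays again lay below the others without overlap, beside the 14.5% and 15.3% of all probe sets for which this held. On this probe set control GFP+ exceeded GFP- cells by 0.39 (adjusted p = 0.0772) and PAX3-FKHR GFP+ exceeded them by 0.31 (adjusted p = 0.158), neither of which was called. The difference with PAX3-FKHR was -0.08 (adjusted p = 0.898).

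Foxd1 minus Foxd2 was -0.50, -0.58 and -0.70 within the PAX3-FKHR GFP+ arrays, 0.46, -0.52 and -0.35 within the control GFP+ arrays and -1.03, -0.63 and -0.71 within the GFP- arrays. These groups overlapped except for control GFP+ against GFP-. The pair differed by 0.46 in their response to PAX3-FKHR, with Foxd1 the lower (exact permutation p = 0.2), and by 0.66 between control GFP+ and GFP- cells (exact permutation p = 0.1). Both values rested in part on control GFP+ replicate 1, without which they were 0.161, again with Foxd1 the lower, and 0.358.

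**Figure D2:**
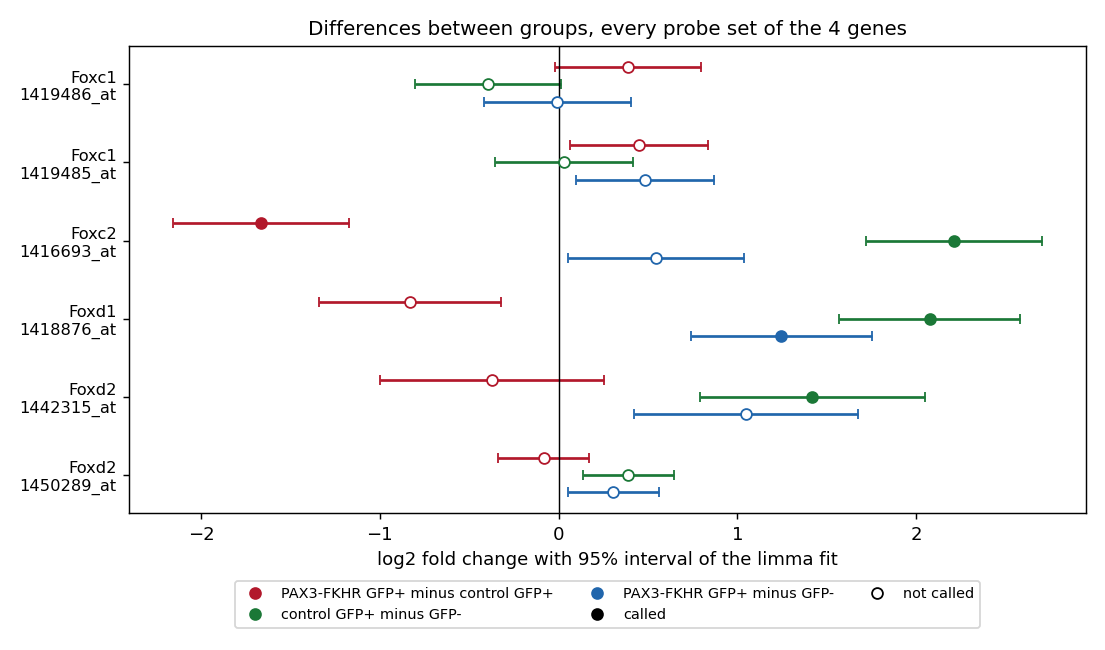
Log2 fold change (horizontal axis) with the 95% interval of the limma fit for each of the 6 probe sets (vertical axis) in the 3 comparisons, by colour. Filled points were called, and the filled points are Foxc2 with PAX3-FKHR at -1.66, Foxc2, Foxd1 and Foxd2 between control GFP+ and GFP- cells, and Foxd1 between PAX3-FKHR GFP+ and GFP- cells.

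Pax3 is the gene that carries the reporter and the fusion, and its transcript was read alongside. Pax3 read 7.15, 6.83 and 7.33 in PAX3-FKHR GFP+ cells, 9.92, 8.94 and 10.22 in control GFP+ cells and 5.17, 5.14 and 4.77 in GFP- cells. It fell by 2.59 with PAX3-FKHR (SE 0.29, adjusted p = 0.00363), and control GFP+ exceeded GFP- cells by 4.67 (adjusted p = 2.69e-05). Its other 2 probe sets were called in the same directions in all 3 comparisons. How far each probe set detects the fusion transcript was not tested. The gate follows the Pax3 locus, and embryos with the fusion keep no intact Pax3 allele. The order of Pax3 levels is thus tied to the design, and how far the design sets it was not tested. PAX3-FKHR GFP+ cells also exceeded GFP- cells by 2.08 (adjusted p = 0.00211), and the source of that signal was not tested. Foxc2, Foxd1 and Foxd2 had the same order of group means as Pax3, from which nothing is read about Pax3 activity. Of the 4 genes, Foxc2 was called lower in PAX3-FKHR GFP+ than in control GFP+ cells. Foxc2, Foxd1 and Foxd2 were called higher in the control cells that express Pax3 than in GFP- cells.

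Pax7, the paralogue of Pax3 in muscle progenitors, and Hdac5, a class II histone deacetylase, went the other way from Foxc2 with PAX3-FKHR. Pax7 read 7.502, 7.70 and 7.65 in PAX3-FKHR GFP+ cells against 6.29, 6.29 and 5.92 in control GFP+ cells, a rise of 1.45 (SE 0.24, adjusted p = 0.0281). Its GFP- values of 3.16, 3.61 and 4.25 were below both. Hdac5 read 9.39, 9.34 and 8.98 in PAX3-FKHR GFP+ cells, 8.20, 8.42 and 8.16 in control GFP+ cells and 8.05, 8.01 and 7.86 in GFP- cells. It rose by 0.98 with PAX3-FKHR (SE 0.15, adjusted p = 0.0208), while control GFP+ minus GFP- was 0.29 (adjusted p = 0.310). Hdac5 and Foxc2 changed in opposite directions with PAX3-FKHR. Between control GFP+ and GFP- cells Foxc2 was 4.63-fold higher and Hdac5 was not called. Whether Hdac5 acts on Foxc2 in these cells was not tested. Across all 9 arrays the Pearson correlation of Foxc2 was -0.075 with Hdac5, 0.342 with Pax7 and 0.933 with Pax3, as a description without a test.

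**Figure D3:**
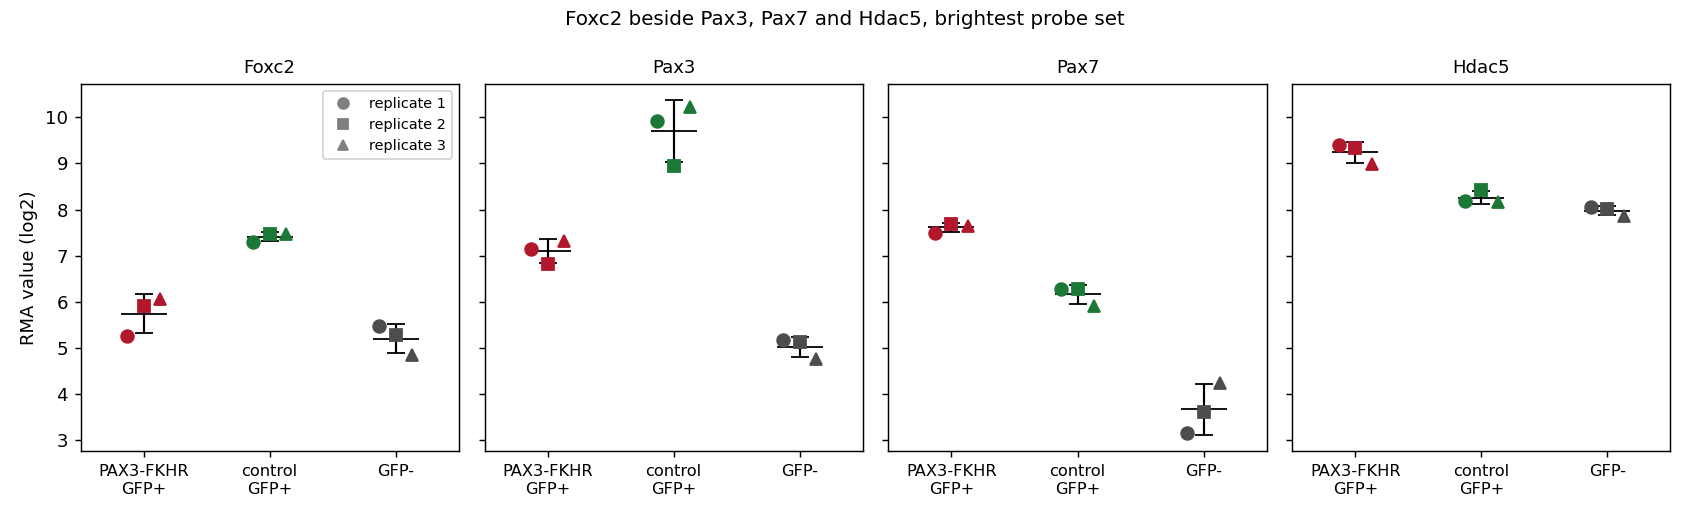
RMA value on the log2 scale (vertical axis, shared) of the main probe set of Foxc2, Pax3, Pax7 and Hdac5 in the 3 groups, with single arrays as points and the mean and SD of 3 arrays as bars. With PAX3-FKHR, Foxc2 and Pax3 are below control GFP+ in every array and Pax7 and Hdac5 are above it.

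A list of 40 other forkhead genes gave 33 that could be analysed. With PAX3-FKHR, none of the 33 was called in either direction, and their median log2 fold change was 0.02, against -0.03 over all 18193 genes, of which 111 were called higher and 37 lower. Between control GFP+ and GFP- cells, 2 of the 33 were called higher and none lower, with a median of 0.17 against 0.08 over all genes. The 2 were Foxd3, a regulator of the neural crest, at 1.34 (adjusted p = 0.00996), and Foxo1, the mouse FKHR gene, at 0.65 (adjusted p = 0.0256). Foxd3 read 4.23, 4.70 and 4.003 in PAX3-FKHR GFP+ cells, 4.74, 5.62 and 4.82 in control GFP+ cells and 3.90, 3.74 and 3.52 in GFP- cells. Its order of group means was that of Foxd1 and Foxd2, and its difference with PAX3-FKHR was -0.75 (adjusted p = 0.444). Foxd4 was called in no comparison.

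Between PAX3-FKHR GFP+ and GFP- cells, 4 of the 33 were called higher and none lower. They were Foxo1 at 1.41 (adjusted p = 2.79e-04), Foxo4 at 0.97 (adjusted p = 0.0219), Foxp1 at 0.88 (adjusted p = 0.0447) and Foxf2 at 0.68 (adjusted p = 0.0151), with a median over the list of 0.11 against 0.05 over all genes. Foxo1 differed by 0.76 with PAX3-FKHR (adjusted p = 0.0551), which was not called. Whether the Foxo1 probe sets detect the FKHR part of the fusion was not tested.

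**Figure D4:**
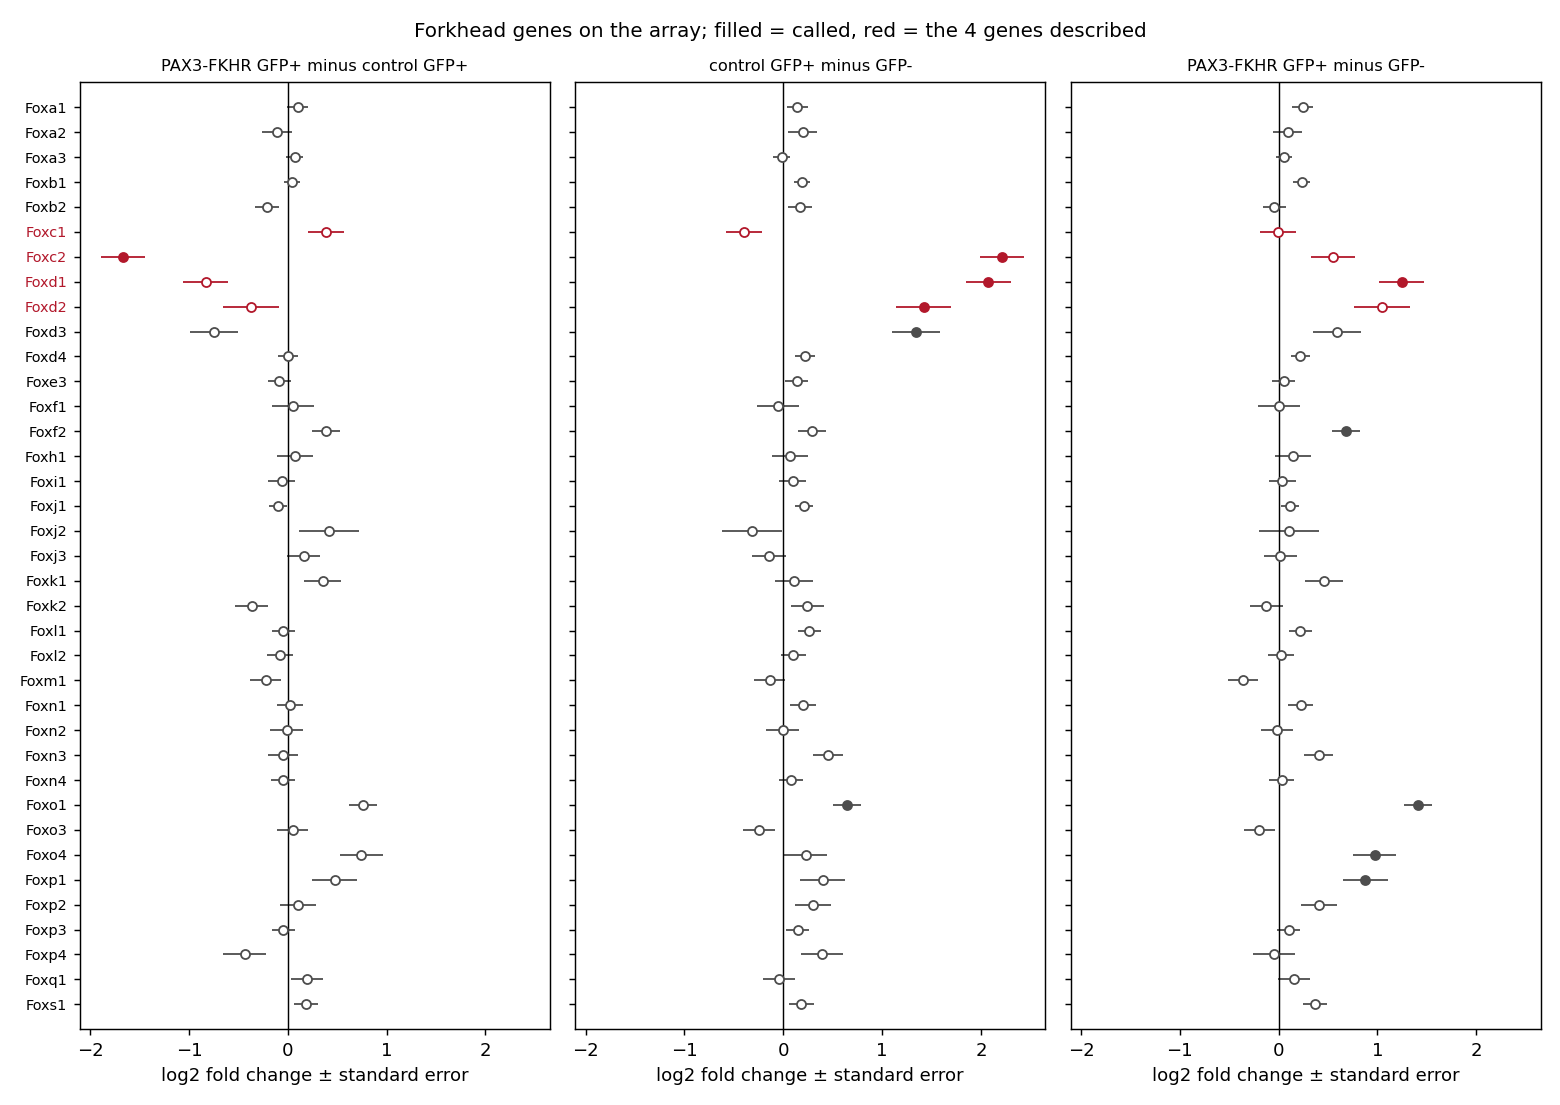
Log2 fold change with its standard error (horizontal axis) of 33 other forkhead genes and the 4 genes described, in red, in the 3 comparisons. Filled points were called. With PAX3-FKHR the only filled point is Foxc2 at -1.66, and between control GFP+ and GFP- cells the filled points are Foxc2, Foxd1, Foxd2, Foxd3 and Foxo1.

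A list of 15 genes linked to Foxc function in mesoderm, vessels and skull, all on the array, held no gene called with PAX3-FKHR, where 10 were below and 5 above 0 and the median was -0.09. Between control GFP+ and GFP- cells 2 were called higher and 2 lower, with a median of 0.22. Those higher were Cxcr4, the chemokine receptor of migrating progenitors, at 2.78 (adjusted p = 3.23e-04), and Tbx1, a T-box factor that acts with forkhead proteins in the pharyngeal region, at 1.67 (adjusted p = 4.66e-04). Those lower included Msx2, a homeobox target of BMP signalling, at -2.11 (adjusted p = 1.46e-04). Between PAX3-FKHR GFP+ and GFP- cells 2 were called higher and 3 lower. Of all 18193 genes, 111 were called higher and 37 lower with PAX3-FKHR, 10475 were below 0 and the median was -0.03. With so few calls over all genes, the absence of a call among 15 shows nothing particular to this list. Between control GFP+ and GFP- cells, 507 of all genes were called higher and 351 lower, with a median of 0.08. Between PAX3-FKHR GFP+ and GFP- cells these counts were 710 and 508. The same all-gene counts stand beside the marker lists below.

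Since Foxc genes are also expressed by vessels, 24 endothelial markers were read by array. With PAX3-FKHR none was called, but 20 of the 24 were below 0 and 4 above, with a median of -0.29 against -0.03 over all genes. Of all 18193 genes, 10475 were below 0 there. Between control GFP+ and GFP- cells 21 of the 24 were above 0, with a median of 0.30. Over all 18193 genes 12007 were above 0 there, with a median of 0.08. Of the 24, 1 was called, Ramp2, an adrenomedullin receptor component, at 0.96 (adjusted p = 0.0439). The mean level of the list ran from 5.73 to 6.11 in PAX3-FKHR GFP+ cells, from 5.89 to 6.68 in control GFP+ cells and from 5.38 to 6.25 in GFP- cells. These ranges overlapped, but between arrays of equal replicate number the mean was lower with PAX3-FKHR in all 3 pairs, at 5.82 against 6.04, 6.11 against 6.68 and 5.73 against 5.89. The labels do not state that arrays of equal number share a sort. The Foxc2 arrays of these groups did not overlap, so Foxc2 is lower in any pairing and its match to these pairs carries no information. The part of endothelial cells in the Foxc2 difference was not tested.

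**Figure D5:**
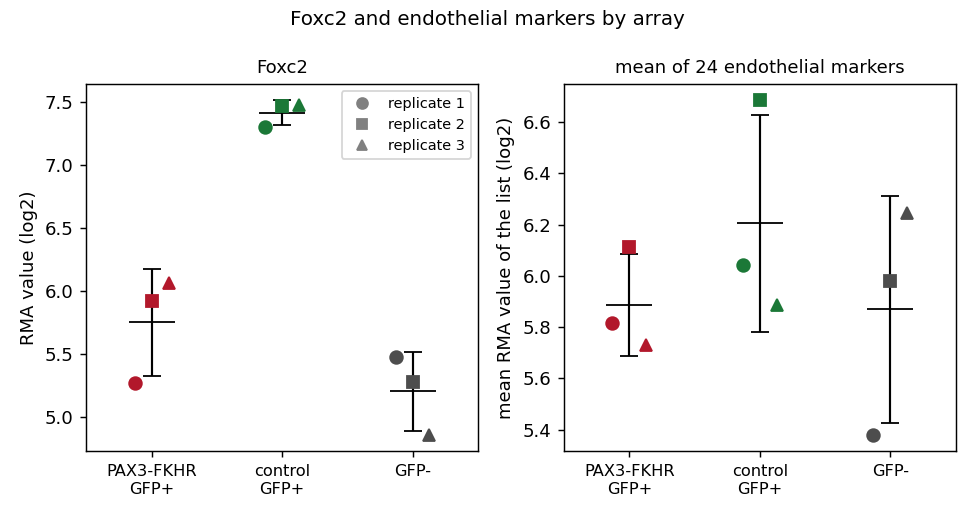
RMA value of Foxc2 (left) and mean RMA value of 24 endothelial markers (right) in each array, on the log2 scale with separate vertical axes, and the mean and SD of 3 arrays as bars. Foxc2 is lower in every PAX3-FKHR GFP+ array than in every control GFP+ array. The endothelial means of these groups overlap, and are lower with PAX3-FKHR between arrays of equal replicate number, which are not stated to share a sort.

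Muscle progenitor markers were read as a description of the sort. It is no independent check, since the lists were chosen with earlier results of these data known. All 11 that could be analysed were called higher in both GFP+ groups than in GFP- cells. Of all 18193 genes, 507 were called higher in control GFP+ and 710 in PAX3-FKHR GFP+ cells there. None of the 11 was called with PAX3-FKHR, but 9 were above 0 and 2 below, with a median of 0.59 against -0.03 over all genes. Of 24 limb mesenchyme markers, none was called with PAX3-FKHR, while 16 were called lower in control GFP+ cells against the GFP- group, among them Tbx5 at -1.67 (adjusted p = 2.72e-04). Their mean level was 7.19 to 7.53 in control GFP+ cells and 8.45 to 8.83 in GFP- cells. Foxd1 and Foxd2 thus ran against this list, since they were higher in control GFP+ cells. Of 11 somite and sclerotome markers, none was called with PAX3-FKHR. Between control GFP+ and GFP- cells 4 were called higher, among them Meox1, a somite homeobox gene, at 2.08 (adjusted p = 1.23e-04), and 2 lower, Tbx18 and Pax1.

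Some markers of neural crest, glia and neurons were called higher in control GFP+ than in GFP- cells, as were Foxc2, Foxd1 and Foxd2. Among 6 markers of neural crest and glia, control GFP+ exceeded GFP- cells in 3 and was below them in 1 by the test, with Sox10 at 1.96 (adjusted p = 0.00548), and none was called with PAX3-FKHR. The mean level of these markers was 7.61 to 8.65 in control GFP+, 7.71 to 8.53 in PAX3-FKHR GFP+ and 6.44 to 6.95 in GFP- cells. Of 10 neuron markers, 4 were called higher in control GFP+ than in GFP- cells, none lower, and none with PAX3-FKHR. Their mean level was 6.15 to 6.25 in control GFP+, 5.81 to 6.86 in PAX3-FKHR GFP+ and 4.84 to 4.86 in GFP- cells. The part of these cells in the levels of Foxc2, Foxd1 and Foxd2 was not tested. Of 12 limb ectoderm markers 1, Fgf8, was called with PAX3-FKHR, at 1.14 (adjusted p = 0.00712), and 3 were called lower in control GFP+ cells against the GFP- group, where all 12 had a value below 0. Of 12 blood and macrophage markers none was called with PAX3-FKHR, and 1 was called lower in control GFP+ cells against the GFP- group, where 10 of the 12 had a value below 0.

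Genes with a profile like that of each forkhead gene were ranked by Pearson correlation over the 9 arrays among 11775 genes with a mean level of at least 5, as a description without a test, since all points share arrays and groups. The correlation takes no account of the size of a difference. For Foxc2 the highest were Me1, the malic enzyme, at 0.964, Pou3f3, a POU domain factor, at 0.956, Tacr3, the neurokinin B receptor, at 0.953, and Jak1, a cytokine receptor kinase, at 0.953. Tacr3 had group means of 5.41 in PAX3-FKHR GFP+, 7.39 in control GFP+ and 4.42 in GFP- cells. The lowest were Sclt1 at -0.947 and Trps1, a GATA-type repressor, at -0.943. For Foxd1 the highest were Rasgrf2 at 0.967, Hoxc9, a homeobox gene of posterior identity, at 0.961, Mybpc1, a myosin binding protein of skeletal muscle, at 0.956, and Ckb, the brain-type creatine kinase, at 0.955. The group means of Mybpc1 were 6.97, 7.97 and 4.77 in PAX3-FKHR GFP+, control GFP+ and GFP- cells. Nfia at -0.959 and Pum2 at -0.952 were the lowest for Foxd1.

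For Foxd2 the highest were Dnajc27 at 0.960, Gzmm at 0.938, Fbxl12 at 0.934 and Slc35g1 at 0.929, and the lowest were Lnx1 at -0.952 and Pum2 at -0.920. The sizes of the differences varied. In PAX3-FKHR GFP+, control GFP+ and GFP- cells, group means were 6.33, 6.42 and 6.16 for Dnajc27 and 6.19, 6.41 and 5.10 for Slc35g1. Among themselves, Foxd1 and Foxd2 correlated at 0.913, Foxc2 and Foxd1 at 0.857 and Foxc2 and Foxd2 at 0.767. Foxc1 stood apart from these 3, at -0.530 with Foxc2, -0.605 with Foxd1 and -0.305 with Foxd2. For Foxc1 the highest were Vps13d at 0.892, Galnt10 at 0.875, Sp7, an osteoblast factor, at 0.816 and Ccdc106 at 0.808. The lowest for Foxc1 were Miat at -0.894 and Cyp26a1, a retinoic acid degrading enzyme, at -0.892. Miat had group means of 6.72, 8.57 and 6.52 in PAX3-FKHR GFP+, control GFP+ and GFP- cells, a profile like that of Foxc2.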

How the data were processed

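RNA of the sorted cells was amplified in 2 cycles and hybridised to Affymetrix Mouse430_2 arrays. The authors' deposited values are RMA values per probe set on the log2 scale, taken as given; the RMA version is not given in the sources used here. Of the probe sets, 64 array controls were set aside and 45037 tested, of which 34945 have 1 gene symbol, 932 several and 9160 none. The 9 arrays correlated with each other at 0.961 to 0.993 over all probe sets, none were identical, and 3 arrays a group limit the precision.

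Values of the 3 groups entered a single limma 3.58.1 model (R 4.3.3, lmFit and eBayes with an intensity trend) that had been tested on simulated data. Group differences were called as stated in the report. The study's local pooled error test, with its threshold, was rebuilt as an alternative. Replicate numbers are those of the sample titles. For arrays of equal number, deviations from the group mean correlated between PAX3-FKHR GFP+ and control GFP+ at 0.164, 0.472 and 0.287. With GFP- arrays these correlations ran from -0.288 to 0.155. No values for unequal numbers are given, so the correlations cannot settle whether equal numbers form pairs. The main fit used no pairing, and a block for equal numbers entered only as an alternative.

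The 4 genes and the gene lists were chosen with earlier results of these data known. Lists were written from general knowledge, and the brightest probe set on average stands for a gene. Genes named are the 4, Pax3, Pax7, Hdac5, Foxo1, called forkhead genes, up to 3 called genes of each other list with the smallest adjusted p, and for each of the 4 the 4 most and 2 least correlated genes. Foxd4, as the relative of Foxd1, is named outside this rule. Promoter sequences are those of RefSeq (GRCm38.p6).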

Additional observations from a re-analysis of the deposited data

How the results depend on the processing

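The 12 differences of the main probe sets were recomputed under other normalisations, filters, thresholds and tests, with other probe sets and with each array left out, 222 values in all, of which 204 kept their direction and side of the threshold. All 18 alternatives kept the Foxc2 calls with PAX3-FKHR (adjusted p up to 0.0394) and against GFP- cells, and both Foxd1 calls. With PAX3-FKHR, Foxd1 stayed short of the threshold in all of them (adjusted p from 0.0837 to 0.659).

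Foxd2 was the least stable. Control GFP+ minus GFP- lost its call on the 6 arrays compared (1.42, adjusted p = 0.0508), on the second probe set (0.39) and without GFP- replicate 3, with a range of 1.12 to 1.78 over the arrays left out. PAX3-FKHR GFP+ minus GFP- gained the call with quantile normalisation (1.07), array weights (1.18), a mean of at least 5 (1.05), the filter at the median (1.05), the local pooled error test (1.17) and without GFP- replicate 1 (range 0.75 to 1.41). Foxc1 turned its sign, with no call, between PAX3-FKHR GFP+ and GFP- cells with centred arrays (0.0018), quantile normalisation (0.0708), the second probe set (0.48) and arrays left out (-0.14 to 0.0774). It also did so between control GFP+ and GFP- cells on the second probe set (0.0319).

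A block for equal replicate numbers on all 9 arrays changed no call of the 4 genes: Foxc2 with PAX3-FKHR had an adjusted p of 0.0249 and Foxd2 between control GFP+ and GFP- cells 0.0190. On the 6 arrays compared, where Foxd2 had already lost that call, the block gave 1.42 with an adjusted p of 0.107. Over the whole array, the 242 probe sets called with PAX3-FKHR became 488 with array weights, 199 with the block on all arrays, 104 on the 6 arrays, 376 with the block on these and 104 to 192 with arrays left out (130 when control GFP+ replicate 1 was left out, and 136, 104 and 135 for PAX3-FKHR GFP+ replicates 1, 2 and 3). The 2631 called between control GFP+ and GFP- cells became 3173 with the block on all arrays, 1936 on the 6 arrays, 1617 with the block on these, 1469 at a log2 fold change of 1 and 1601 to 2787 with arrays left out (1601 without GFP- replicate 1, 1738 without GFP- replicate 3 and 1633 without control GFP+ replicate 2). The 3061 called between PAX3-FKHR GFP+ and GFP- cells became 1647 at that threshold and 1580 to 2566 with arrays left out (1580 without PAX3-FKHR GFP+ replicate 2 and 1963 without GFP- replicate 1). The array weights ran from 0.236 for control GFP+ replicate 3 to 2.69 for control GFP+ replicate 1. The cause of the shifts in these counts was not tested.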
